A study of Homo sapiens with 28 samples.

Results

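The genes described here encode the translation initiation and elongation factors, the proteins that bring ribosomes to messenger RNAs and drive each step of peptide chain growth. They were chosen by name, as probes whose platform gene symbol begins with EIF1 to EIF6, EEF1 or EEF2, with the eIF4E-binding proteins kept and pseudogenes left out. The genes of the kinases of eIF2 (EIF2AK1 to EIF2AK4) and EIF2S1, for the alpha subunit of eIF2, were left out as well. This gave 96 of the 47231 probes on the array and 59 of 18811 named genes. EIF1AY is a member whose level is not given, which leaves 58 genes. Of these, 54 passed the detection filter in every experiment and EIF3J-DT, a non-coding neighbour of EIF3J, passed in 1 experiment. EIF4E1B, EIF5A2 and EIF5AL1 passed in none.

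Expression was measured on 28 Illumina HT-12 bead arrays, in 12 groups and 3 experiments, from JeKo-1 and Z138, established human lines of mantle cell lymphoma, a cancer of B cells. One experiment was a time course of ONC201 in JeKo-1, with 3 arrays each at 0, 12, 24 and 36 h; ONC201 is a small molecule that activates CLPP, a protease of mitochondria, and the labels state no dose for this course. Another compared ONC201-naive parental Z138 cells with Z138 cells resistant to the drug, both untreated and after 24 h at 5 µM ONC201, with 2 arrays per group. The last exposed JeKo-1 to tunicamycin at 1 µM (12 h and 24 h) and to rapamycin at 10 nM (24 h only), next to an untreated 24 h group, again as pairs of arrays. All cultures were kept in medium with serum, all drugs were dissolved in DMSO, and untreated cultures received DMSO. The changes over the ONC201 course in JeKo-1 also hold the time in culture, and the 12 h tunicamycin cells were compared with untreated cells of 24 h.

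Initiation starts when eIF2 carries the initiator tRNA to the small ribosomal subunit as a ternary complex, with eIF2B recharging eIF2 and eIF3 acting as the scaffold. The eIF4 factors bind the cap of the mRNA and unwind its leader, and the eIF4E-binding proteins block the cap-binding factor until the kinase complex mTORC1 phosphorylates them. Stress kinases phosphorylate eIF2 and thereby slow initiation, tunicamycin triggers such a stress by blocking N-linked glycosylation in the endoplasmic reticulum, and rapamycin inhibits mTORC1. Many mRNAs of the translation apparatus begin with a 5′ terminal oligopyrimidine (TOP) tract, a cytosine followed by a run of pyrimidines, which places their translation under mTORC1.

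Across the arrays, 29.7% to 35.2% of the probes were detected, and the median raw signal ran from 47.5 to 68.7 intensity units. The B-cell genes CD79A, CD79B and MS4A1 were detected on all arrays of both lines, as was SOX11, a marker of mantle cell lymphoma. CCND1, the cyclin D1 gene that defines the disease, was detected on 0 of 20 JeKo-1 arrays and 8 of 8 Z138 arrays with its 1 probe. The T-cell genes CD3D and CD3E, the NK-cell genes NCAM1 and KLRD1 and the monocyte gene LYZ were detected on none, while CD3G and the fibroblast gene COL1A1 were detected on 8 of 8 Z138 and 0 of 20 JeKo-1 arrays. The monocyte and macrophage gene CD68 and the plasma-cell genes SDC1 and PRDM1 were each detected on 18 of 20 JeKo-1 and 8 of 8 Z138 arrays. CD14 was detected on 5 of 20 and 2 of 8, CD2 on 3 of 20 and 1 of 8, and CSF1R on 1 of 20 and 0 of 8. The labels do not say whether replicates came from separate cultures, so p-values measure the spread between these samples, which may be technical. Every experiment was run on a separate chip, where the groups were laid out in order, so position and group cannot be told apart.

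The starts of the factor genes are shown first because the members with a TOP start that were called with ONC201 in JeKo-1 and in parental Z138 cells were all higher, as described below. A TOP start was taken as C followed by at least 4 pyrimidines at an annotated RefSeq start (GRCh38.p14). It was found in 12 of the 45 members with a promoter in the table, and 4.07% of all 35116 promoter windows hold it. Each line runs from 10 bases before the start to 20 bases into the transcript, and capitals mark the pyrimidine run that opens at the start.
EIF2D: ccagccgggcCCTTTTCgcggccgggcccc
EEF1B2: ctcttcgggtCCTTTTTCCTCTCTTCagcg
EIF2A: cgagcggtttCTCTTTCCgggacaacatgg
EIF4A2: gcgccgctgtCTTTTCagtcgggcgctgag
EEF1A1: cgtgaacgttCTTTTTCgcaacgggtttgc
EIF3F: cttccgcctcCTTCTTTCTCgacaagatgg
EIF3M: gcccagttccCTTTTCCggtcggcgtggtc
EIF4B: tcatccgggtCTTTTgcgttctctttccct
EEF2: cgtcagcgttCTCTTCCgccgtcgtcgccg
EIF3K: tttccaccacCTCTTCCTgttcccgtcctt
EIF3D: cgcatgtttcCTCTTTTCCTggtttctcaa
EIF2S3: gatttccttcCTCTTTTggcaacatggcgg
The run was longest in EEF1B2, with 16 bases, and shortest in EIF4B, with 5. These starts lie on 8 autosomes and the X chromosome, for example EEF2 at chr19:3985444-3985473 on the minus strand, EIF4A2 at chr3:186783567-186783596 on the plus strand and EIF2S3 at chrX:24054946-24054975 on the plus strand.

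Stress elements were searched on both strands of the same windows, which reach from 250 bases before to 50 bases after a start. Members without a promoter in the table were searched neither for these elements nor for a TOP start. They are EIF4EBP1, EIF2S2, EIF3A, EIF3CL, EIF3E, EIF3G, EIF3H, EIF3L, EEF1A2, EEF1D, EEF1AKMT1, EEF1AKMT3 and EEF2KMT. The ATF4/CHOP element TGATGNAA, held by 3.62% of all windows, was found in 1 member, EIF4E3, at position -13 from one of its annotated starts. The endoplasmic reticulum stress element, CCAAT and CCACG spaced by 9 bases, is held by 0.0769% of all windows and was found in 1 member, EIF2A, at position -77 from its start. Both stretches are printed because EIF4E3 and EIF2A are called with ONC201 and with tunicamycin below; capitals mark the match.
EIF4E3, chr3:71729119-71729248, minus strand: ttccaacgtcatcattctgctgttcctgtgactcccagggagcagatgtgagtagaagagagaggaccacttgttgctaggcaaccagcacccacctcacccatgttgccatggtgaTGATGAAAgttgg
EIF2A, chr3:150546657-150546786, plus strand: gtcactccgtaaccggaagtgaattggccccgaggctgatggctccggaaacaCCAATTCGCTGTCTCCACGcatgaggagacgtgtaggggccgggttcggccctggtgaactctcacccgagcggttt
The cyclic AMP element TGACGTCA (1.85% of windows) was found in EEF2 alone among the members, and the E-box CACGTG (7.26% of windows) in 11 members, EIF4G1 and EIF4E among them. A match is a description of these letters and not evidence of binding.

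How many factor genes passed the test differed by drug and time. The share called was close to that of all genes with ONC201, and it was 21.8% at 24 h of tunicamycin and 10.9% with rapamycin, below the shares of all genes given here. Calls rest on limma with a threshold of 0.05 on p-values adjusted over all genes kept. After 12 h of ONC201 in JeKo-1, 0 of 54 factor genes were called higher and 1 lower, while 3.83% of all 8809 genes were called, 2.17% higher and 1.66% lower. After 24 h, 16 factor genes were higher and 8 lower (44.4%), against a background of 38.4% of all genes (19.9% higher, 18.5% lower). After 36 h, 17 were higher and 11 lower (background 51.1%, with 25.2% higher and 26% lower). In parental Z138 cells 21 were higher and 6 lower with ONC201 (background 44.8% of 9420 genes, with 22.8% higher and 22% lower). In resistant Z138 cells 0 of 54 were called (background 0.669%, with 0.18% higher and 0.488% lower). Limma gave an unadjusted p under 0.05 for 3 members there. For this and later counts by unadjusted p, the share of all genes was not counted.

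In JeKo-1 cells 10 of 55 factor genes were higher and 2 lower after 12 h of tunicamycin (background 25.6% of 9498 genes, with 13.9% higher and 11.7% lower). At 24 h of tunicamycin 9 were higher and 3 lower (background 32.6%, with 17.3% higher and 15.4% lower). With rapamycin 1 was higher and 5 were lower (background 24.6%, with 12% higher and 12.6% lower). The median log2 change over all factor genes was 0.18 in parental Z138 cells, 0.05 at 24 h of ONC201 in JeKo-1, 0.05 at 24 h of tunicamycin and -0.01 with rapamycin, beside medians of all genes within 0.03 of 0. Under median scaling the medians of the factor genes were 0.10, 0.03, 0.01 and -0.04 in the same order, and with rapamycin it was 0.01 without the detection filter. The 12 h tunicamycin count rested on single arrays: it was 4 and 5 without 12 h tunicamycin replicate 1 and 2, and 6 and 3 without untreated replicate 1 and 2. The 24 h tunicamycin count was 7 without either untreated replicate. The single call at 12 h of ONC201 was lost without 12 h replicate 1 or 2 or 0 h replicate 1 or 3.

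**Figure D1:**
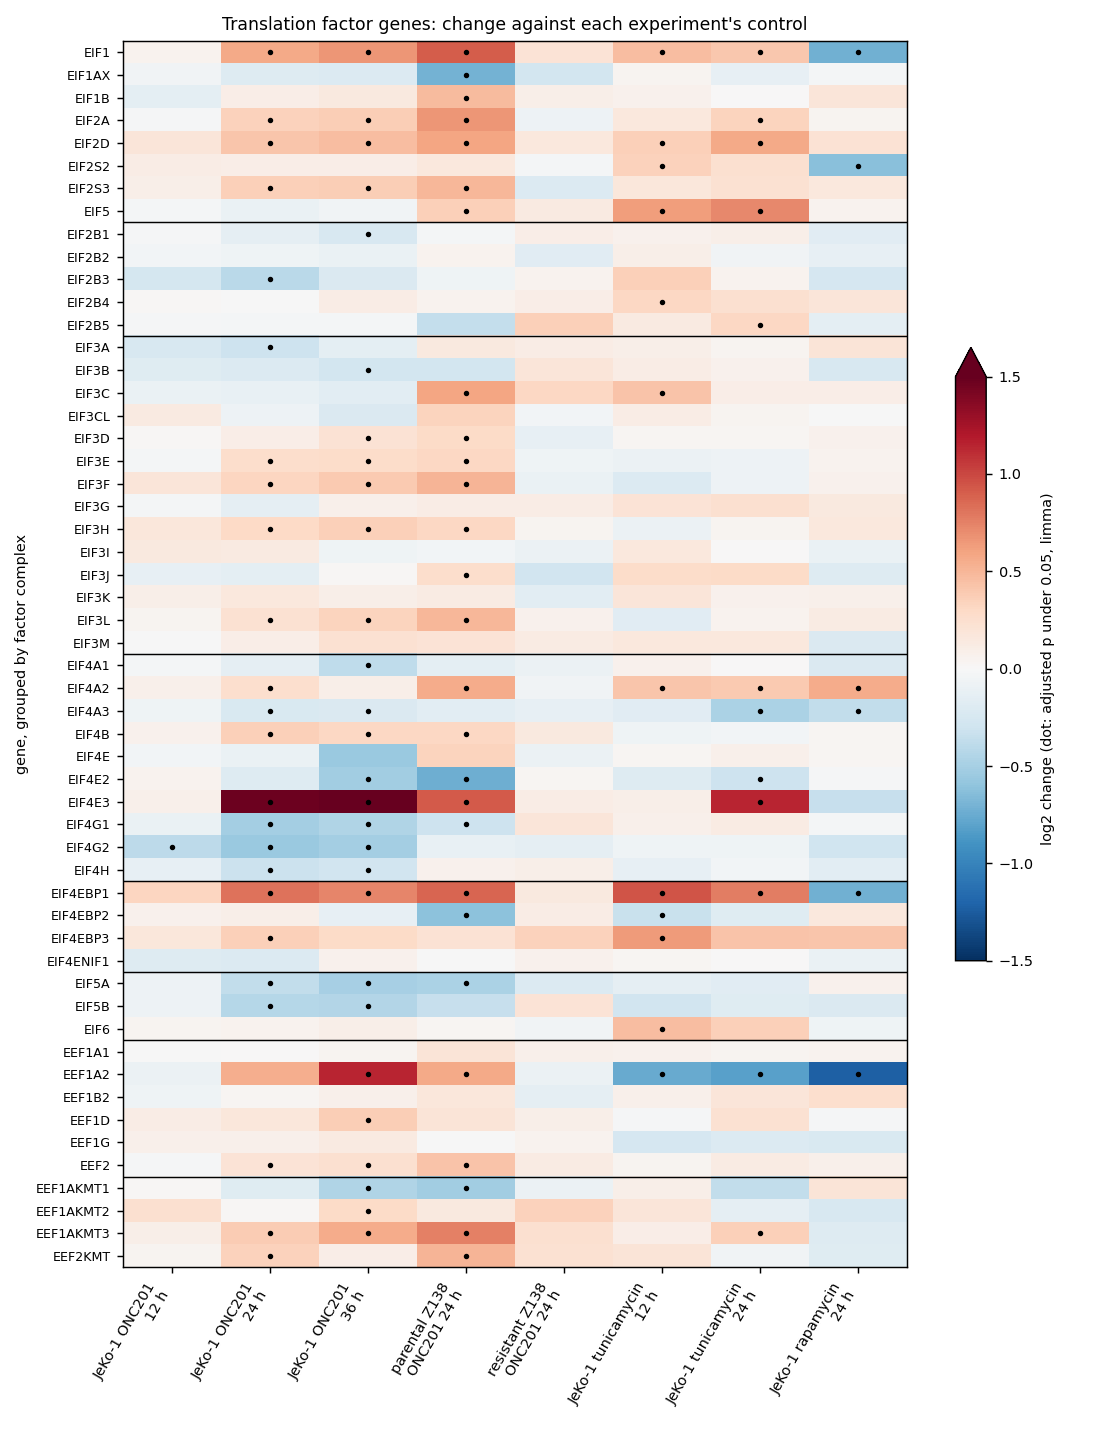
Log2 change of each factor gene (rows, grouped by complex and divided by lines) in 8 comparisons (columns); red is higher and blue lower than the control of that experiment, colours stop at 1.5, and a dot marks an adjusted p under 0.05 in limma. EIF4EBP1 is red with ONC201 and tunicamycin and blue with rapamycin, and the column of resistant Z138 cells holds 0 dots.

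In the ternary complex and start-site group, members rose with ONC201 and with tunicamycin and 2 fell with rapamycin. Of its 8 genes, 4 rose and 0 fell at 24 h of ONC201 in JeKo-1, 6 rose and 1 fell in parental Z138 cells, 4 rose and 0 fell at 24 h of tunicamycin, and 0 rose and 2 fell with rapamycin. Over all genes, 19.9%, 22.8%, 17.3% and 12% were higher and 18.5%, 22%, 15.4% and 12.6% lower in the same order. The group's median log2 change was 0.23, 0.49, 0.29 and 0.05 in the same order, and with rapamycin it was -0.01 under median scaling.

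EIF1, which encodes the factor that holds the ribosome to the correct start codon, changed in each of these comparisons. Its normalized level (log2 intensity) was 12.25, 11.93 and 12.36 on the 0 h arrays, 12.61, 12.77 and 12.87 after 24 h of ONC201 and 12.84, 12.90 and 12.78 after 36 h. All 6 later arrays lay above the 3 starting arrays, with a log2 change of 0.57 ± 0.11 (SE, n = 3 per group) at 24 h (limma, adjusted p = 0.00135) and 0.66 ± 0.11 at 36 h. Its level in parental Z138 cells was 12.75 and 12.82 without and 13.63 and 13.75 with the drug, a rise of 0.91 ± 0.09 (n = 2 per group, adjusted p = 0.000162). In the third experiment the level was 12.31 on both untreated arrays, 12.69 and 12.74 after 24 h of tunicamycin, and 11.51 and 11.67 after rapamycin. The tunicamycin arrays were thus all higher and the rapamycin arrays all lower than the untreated ones. EIF1 rose by 0.41 ± 0.09 with tunicamycin at 24 h (adjusted p = 0.011) and fell by 0.72 ± 0.09 with rapamycin (adjusted p = 0.00172). The call with 24 h of tunicamycin was lost without tunicamycin replicate 2 or untreated replicate 1, with a highest adjusted p of 0.0591, and under median scaling (0.0551), whereas those named above for ONC201 and rapamycin were kept with any 1 array left out.

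EIF2S2, which encodes the beta subunit of eIF2, had levels of 7.92 and 7.71 untreated, 8.17 and 8.15 after 12 h of tunicamycin and 7.23 and 7.14 after rapamycin. Against the untreated cells, rapamycin gave a call kept with any 1 of the 4 arrays left out, a fall of 0.62 ± 0.10 (adjusted p = 0.00561); the change at 12 h of tunicamycin was 0.35 ± 0.10 (adjusted p = 0.0452, and 0.205 at most with 1 array left out, each of the 4 omissions ending the call). With ONC201 its change was 0.10 at 24 h in JeKo-1 and 0.15 in parental Z138 cells, neither called.

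EIF2S3, for the gamma subunit of eIF2, and EIF2A and EIF2D, for factors that can place tRNA on the ribosome outside the eIF2 pathway, rose with ONC201 in both lines. EIF2D had levels of 9.18, 9.05 and 9.08 at 0 h and 9.45, 9.57 and 9.55 at 24 h of ONC201, with no overlap. Its change was 0.42 ± 0.07 (adjusted p = 0.000455), and it was 0.59 ± 0.09 in parental Z138 cells and 0.57 ± 0.11 at 24 h of tunicamycin. EIF2S3 changed by 0.35 ± 0.07 in JeKo-1 at 24 h and by 0.50 ± 0.09 in parental Z138 cells.

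EIF2A had levels of 10.66 and 10.77 in untreated parental Z138 cells and 11.40 and 11.35 with ONC201, a rise of 0.66 ± 0.09 (adjusted p = 0.000661). In JeKo-1 at 24 h of ONC201 it rose by 0.35 ± 0.09. At 24 h of tunicamycin it changed by 0.33 ± 0.09 (adjusted p = 0.0246), a call lost with any 1 of the 4 arrays left out (adjusted p of 0.106 at most). Its change with rapamycin was 0.04 ± 0.09. SERP1, which encodes a protein that stabilises membrane proteins during endoplasmic reticulum stress, is transcribed away from EIF2A out of the same stretch. SERP1 rose by 1.10 ± 0.12 in parental Z138 cells and by 0.74 ± 0.12 at 24 h of tunicamycin, and its change in JeKo-1 with ONC201 was 0.00 ± 0.11 at 24 h (adjusted p = 0.997) and a rise of 0.34 ± 0.11 at 36 h (adjusted p = 0.0225).

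EIF5 encodes the protein that makes eIF2 hydrolyse its GTP. Its levels were 10.19 and 9.88 untreated, 10.67 and 10.65 after 12 h and 10.80 and 10.72 after 24 h of tunicamycin, and 10.07 and 10.09 with rapamycin. Both tunicamycin groups lay above the untreated arrays, by 0.62 ± 0.11 at 12 h (adjusted p = 0.00705) and 0.73 ± 0.11 at 24 h (adjusted p = 0.00262). In the ONC201 course in JeKo-1 its changes lay between -0.10 and -0.03 and were not called. The 3 probes of EIF5 did not behave alike: a dimmer probe fell by 0.69 ± 0.13 at 24 h and by 0.81 ± 0.13 at 36 h of ONC201, and had a change of -0.36 ± 0.13 with tunicamycin at 24 h that was not called. With the mean of its probes EIF5 was called at neither tunicamycin time (0.21 and 0.18, adjusted p = 0.221 and 0.263), nor in parental Z138 cells, where the brightest probe had given 0.36 ± 0.10. EIF1AX, which encodes a scanning factor, fell by 0.71 ± 0.16 in parental Z138 cells, and EIF1B, a close copy of EIF1, rose there by 0.48 ± 0.10.

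**Figure D2:**
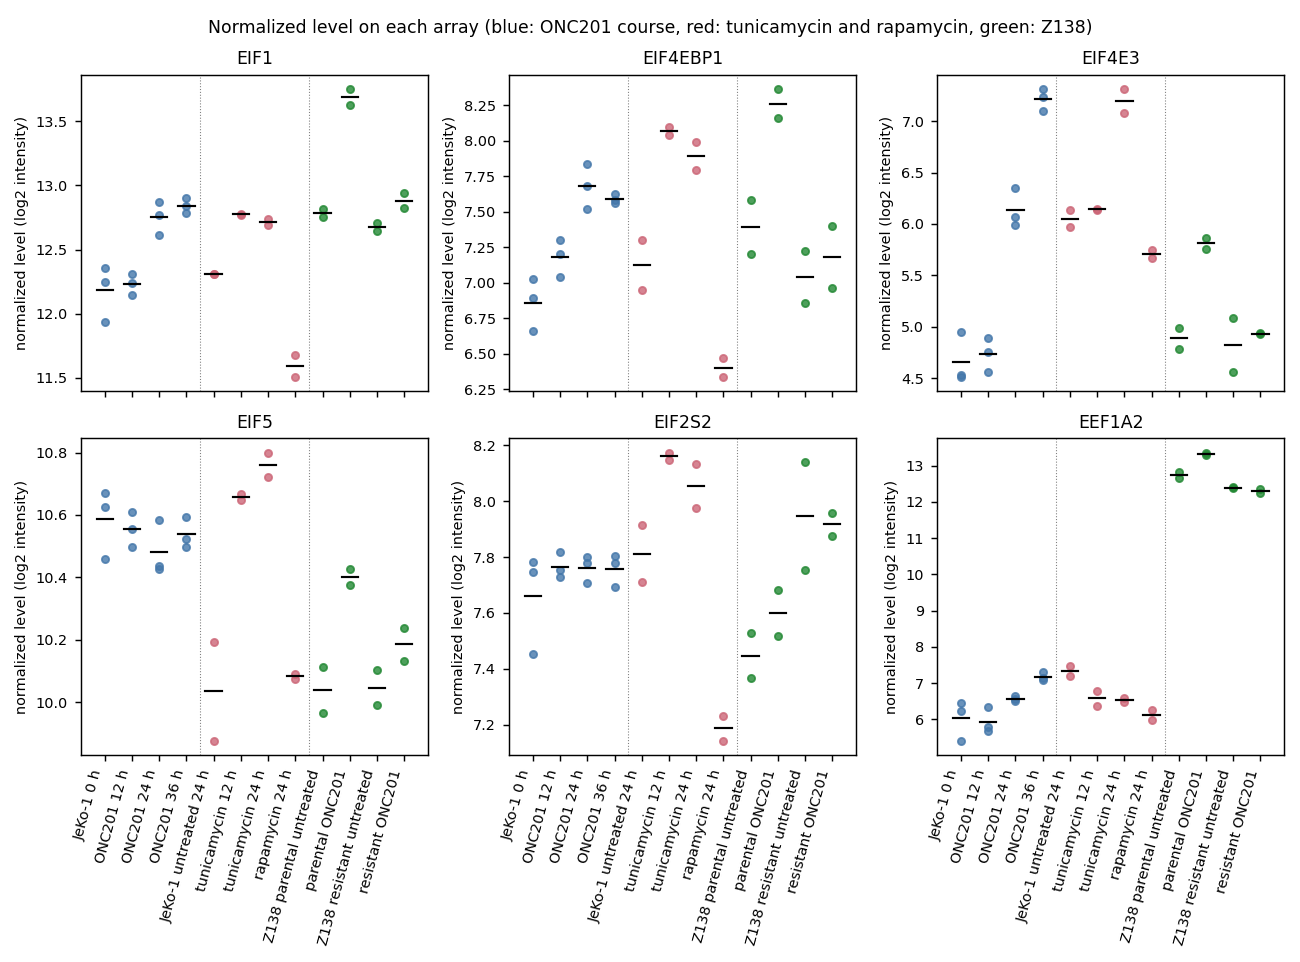
Normalized level (log2 intensity, vertical axis) of 6 factor genes on each array of the 12 groups (horizontal axis); points are arrays, black bars group means and dotted lines divide the experiments, and each panel has its own scale. EIF1 and EIF4EBP1 are highest with ONC201 or tunicamycin and lowest with rapamycin within their experiments, and EEF1A2 lies between 5.40 and 7.48 in JeKo-1 and between 12.25 and 13.35 in Z138.

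The 5 genes of eIF2B, the exchange factor that recharges eIF2 with GTP, held few calls. The shares of all genes called were 38.4% at 24 h of ONC201 in JeKo-1, 44.8% in parental Z138 cells and 32.6% at 24 h of tunicamycin. At 24 h of ONC201 in JeKo-1, 0 rose and 1 fell, EIF2B3, at -0.40 ± 0.13, and that call was lost without 24 h replicate 2 or 0 h replicate 1 or 2 (adjusted p of 0.11 at most). In parental Z138 cells 0 of 5 were called, and limma gave 1 an unadjusted p under 0.05, EIF2B5 (-0.36 ± 0.13, adjusted p = 0.0514). At 24 h of tunicamycin EIF2B5, for the catalytic epsilon subunit, had a change of 0.31 ± 0.08 (adjusted p = 0.0252), and each of the 4 omissions of an array ended the call (adjusted p of 0.117 at most).

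Some subunits of eIF3, the scaffold between ribosome and mRNA, rose with ONC201, while 0 were called with rapamycin or 24 h of tunicamycin, where limma gave 2 and 0 an unadjusted p under 0.05. Of 14 genes, 4 rose and 1 fell at 24 h in JeKo-1, 5 rose and 1 fell at 36 h, and 7 rose and 0 fell in parental Z138 cells. Over all genes, 19.9%, 25.2% and 22.8% were higher and 18.5%, 26% and 22% lower in the same order. The group's median was 0.10 at 24 h, 0.08 at 36 h and 0.28 in parental cells. Under median scaling 2 rose and 2 fell at 24 h, 4 rose and 3 fell at 36 h, and 3 rose and 1 fell in parental cells, with medians of 0.03, -0.02 and 0.13. EIF3E, EIF3F, EIF3H and EIF3L were called higher in all 3 of these comparisons, with changes at 36 h of 0.28, 0.39, 0.35 and 0.34. At 36 h each of these 4 calls was kept with any 1 array left out. At 24 h the call of EIF3E ended without 24 h replicate 1 (adjusted p = 0.053), that of EIF3F without 0 h replicate 2 (0.0542) and that of EIF3L without 24 h replicate 3 or 0 h replicate 1 or 3 (0.0854 at most).

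EIF3L had levels of 13.07 and 13.04 in untreated parental Z138 cells and 13.55 and 13.56 with ONC201, a change of 0.50 ± 0.10 (adjusted p = 0.00475). The other parental calls of eIF3 were weaker: those of EIF3D, EIF3H and EIF3J ended with any 1 of 4 arrays left out, with adjusted p values of 0.0993, 0.131 and 0.16 at most. Those of EIF3C and EIF3F ended without treated replicate 1 or control replicate 1 (0.0734 and 0.0528 at most), and that of EIF3E without either treated array or control replicate 1 (0.261 at most). Median scaling ended the parental calls of EIF3D, EIF3E, EIF3H and EIF3J (adjusted p of 0.239, 0.337, 0.171 and 0.0624). EIF3A, for the largest subunit, lay at 10.31 on all 3 arrays at 0 h and at 10.03, 9.87 and 10.08 at 24 h of ONC201. It fell by 0.31 ± 0.08 (adjusted p = 0.00772). EIF3B fell at 36 h by 0.27 ± 0.08, and its 2 other probes had fallen at 24 h as well, by 0.31 ± 0.06 and 0.77 ± 0.09. EIF3C and EIF3CL are near-identical copies, so the signal of either probe may come from both.

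The eIF4 genes, grouped here as the cap complex, were split in JeKo-1 cells with ONC201. The group also counts EIF4G2, EIF4E2 and EIF4A3, whose other roles are given below. Of its 10 measured genes, 3 rose and 4 fell at 24 h and 2 rose and 6 fell at 36 h, with a median log2 change of -0.17 and then -0.34. In parental Z138 cells 3 rose and 2 fell (median -0.02, and -0.17 under median scaling). At 24 h of tunicamycin 2 rose and 2 fell (EIF4A3 and EIF4E2), and with rapamycin 1 rose and 1 fell (EIF4A3). Over all genes, 19.9%, 25.2%, 22.8%, 17.3% and 12% were higher and 18.5%, 26%, 22%, 15.4% and 12.6% lower in the same order.

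The scaffold genes were on the falling side in JeKo-1. EIF4G1, for the scaffold that joins the cap-binding protein to eIF3, had levels of 11.16, 11.33 and 11.22 at 0 h and 10.80, 10.72 and 10.67 at 24 h of ONC201. It fell by 0.51 ± 0.08 (adjusted p = 0.000303), and its second probe that passed the filter fell by 0.44 ± 0.08. EIF4G2, a related scaffold that works without the cap-binding protein, was the 1 factor gene called at 12 h, with levels of 12.43, 12.20 and 12.40 at 0 h and 11.87, 11.98 and 12.00 at 12 h. It fell by 0.39 ± 0.08 at 12 h (adjusted p = 0.0195, with up to 0.0817 when an array was left out and 0.113 with the mean of its probes) and by 0.55 ± 0.08 at 24 h (adjusted p = 0.000234), and all 3 of its probes were called lower at 24 h. In parental Z138 cells its change was -0.11 ± 0.10 and was not called; the difference between the lines, -0.45 ± 0.12, was called (adjusted p = 0.00728, and 0.0501 without treated parental replicate 1). EIF4G1 in parental Z138 cells had a change of -0.31 ± 0.10 (adjusted p = 0.0291), which ended without treated replicate 2 or either control array (0.168 at most).

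EIF4E3, which encodes a cap-binding protein related to eIF4E, rose with ONC201 in JeKo-1. Its level was 4.95, 4.51 and 4.53 at 0 h, where no array detected it, 5.99, 6.34 and 6.07 at 24 h and 7.23, 7.31 and 7.10 at 36 h, where all arrays did. It was at least 1.55-fold higher at 24 h (adjusted p = 7.69e-06) and at least 3.26-fold higher at 36 h (adjusted p = 3.21e-08), with the bound taken from the lowest detected signal on the dim arrays. It was not detected in parental Z138 cells on either control array, and was at least 1.38-fold higher with ONC201 (adjusted p = 0.00221).

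Untreated JeKo-1 cells of the third experiment, 24 h in culture and on another chip, already stood at 6.13 and 5.97 for EIF4E3, close to the 24 h ONC201 arrays. The difference between those groups was not tested because the chips differ. Against these untreated cells, 24 h of tunicamycin (7.08 and 7.31) raised EIF4E3 by 1.14 ± 0.11 (adjusted p = 0.000228), and rapamycin (5.67 and 5.74) gave a change of -0.35 ± 0.11 that was not called (adjusted p = 0.052).

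Changes of the other members of the cap complex differed by gene and comparison. EIF4A2, one of the 2 DEAD-box helicases of the complex, had levels of 12.27 on both untreated arrays and 12.89 and 12.76 with rapamycin, and was the 1 factor gene that rose with that drug (0.56 ± 0.09, adjusted p = 0.00466). It also rose in parental Z138 cells, by 0.55 ± 0.09 (adjusted p = 0.00126). EIF4A1, for the other helicase, fell by 0.38 ± 0.06 at 36 h of ONC201, and its second probe was called lower with each drug, by 0.76 ± 0.09 at 36 h of ONC201, 0.40 ± 0.10 at 24 h of tunicamycin and 0.46 ± 0.10 with rapamycin. EIF4E2, for a cap-binding protein that represses translation, had levels of 10.63 and 10.65 in untreated parental Z138 cells and 9.84 and 9.97 with ONC201. It fell by 0.74 ± 0.09 there (adjusted p = 0.000377) and by 0.53 ± 0.08 at 36 h in JeKo-1 (adjusted p = 0.000253).

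EIF4B, a helicase cofactor, rose by 0.36 ± 0.09 at 24 h of ONC201 in JeKo-1 (adjusted p = 0.00707), while the related cofactor EIF4H fell by 0.32 ± 0.06. EIF4A3, a helicase of the exon junction complex, fell by 0.47 ± 0.08 at 24 h of tunicamycin (adjusted p = 0.00411). EIF4E itself, the cap-binding protein, was dim: its brightest probe was detected on 20 of 28 arrays and was called in none of the 14 comparisons.

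Among the eIF4E-binding proteins, EIF4EBP1 separated the drugs. This gene for the main translational repressor under mTORC1 had levels of 6.66, 7.03 and 6.89 at 0 h, 7.84, 7.52 and 7.68 after 24 h and 7.62, 7.58 and 7.56 after 36 h of ONC201. All treated arrays from 24 h on were above the starting ones, by 0.82 ± 0.11 (adjusted p = 0.000114) and 0.73 ± 0.11 (adjusted p = 0.000128). Its level in parental Z138 cells went from 7.20 and 7.58 to 8.36 and 8.16 (0.87 ± 0.19, adjusted p = 0.00639).

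In the third experiment EIF4EBP1 stood at 6.95 and 7.30 untreated, 8.10 and 8.04 after 12 h of tunicamycin, 7.99 and 7.79 after 24 h, and 6.47 and 6.34 with rapamycin. It rose by 0.94 ± 0.13 and 0.76 ± 0.13 with tunicamycin and fell by 0.73 ± 0.13 with rapamycin (adjusted p = 0.0026, 0.00422 and 0.00837), with no overlap with the untreated arrays. Each of these calls was kept with any 1 array left out. EIF4EBP2, a related repressor, fell by 0.62 ± 0.10 in parental Z138 cells (8.97 and 9.16 untreated, 8.42 and 8.47 treated; adjusted p = 0.00116) and changed by 0.09 ± 0.09 at 24 h in JeKo-1. The difference between the lines was 0.71 ± 0.13 (adjusted p = 0.000237).

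Of the factors that act after scanning, EIF5A and EIF5B fell with ONC201 in JeKo-1. EIF5A, for the hypusine-bearing factor that helps ribosomes through difficult peptide bonds, had levels of 12.12, 12.07 and 12.20 at 0 h and 11.73, 11.73 and 11.81 at 24 h. It fell by 0.37 ± 0.07 (adjusted p = 0.00109), and by 0.47 ± 0.10 in parental Z138 cells. EIF5B, for the GTPase that joins the ribosomal subunits, fell by 0.43 ± 0.06 at 24 h in JeKo-1 (adjusted p = 0.000284). Untreated JeKo-1 cells at 24 h on the other chip were at 10.96 and 11.14 for EIF5A and 8.33 and 8.54 for EIF5B, so the ONC201 arrays did not lie beyond them. EIF6, for the factor that keeps the large subunit free, was called, among the comparisons with untreated or 0 h cells, only at 12 h of tunicamycin (0.47 ± 0.12, adjusted p = 0.0249, and 0.122 at most with 1 array left out, each of the 4 omissions ending the call).

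Set against those untreated 24 h cells, 19 of the 24 factor genes called at 24 h of ONC201 lay beyond both untreated arrays in the direction of the call. These were 13 of the 16 higher and 6 of the 8 lower genes. The 5 exceptions were EIF4E3, EIF3F, EEF2KMT, EIF5A and EIF5B. For 16 of the 24, the untreated 24 h cells had themselves moved from the 0 h level in the direction of the call. The share of all genes lying beyond the untreated arrays was not counted, so these counts do not set the factor genes apart. Some members that were not called, such as EEF1A1, EIF3I and EIF6, also lay beyond them in the direction of their change. Others, such as EIF3G and EIF4A1, did not. Chip and treatment cannot be told apart in this comparison, and no test was made.

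Elongation factor genes changed little apart from EEF1A2. EEF1A1, for the factor that delivers tRNAs to the ribosome, was among the 25 brightest probes on each array, where the normalization leaves little room for change. Its largest change was 0.19, in parental Z138 cells, and none of its changes was called. A dimmer probe of EEF1A1 did rise, by 0.47 ± 0.13 in parental Z138 cells and by 0.66 ± 0.10 with rapamycin. The probes of EEF1B2, for an exchange factor of eEF1A, also disagreed: its brightest was not called at 36 h of ONC201 (0.08 ± 0.06), while one of the others fell by 0.41 ± 0.07 and another rose by 0.30 ± 0.09. Transcripts of its many processed copies in the genome may add to this signal. EEF2, for the translocase that moves the ribosome along, rose by 0.43 ± 0.09 in parental Z138 cells (13.53 and 13.55 untreated, 13.98 and 13.96 treated; adjusted p = 0.00434) and by 0.24 ± 0.07 at 36 h of ONC201 in JeKo-1, a call lost without 0 h replicate 1 (adjusted p = 0.0668).

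EEF1A2, a tRNA-delivering factor normally made in muscle and neurons, was bright in Z138 and dim in JeKo-1. In JeKo-1 its level was 5.40, 6.22 and 6.45 at 0 h and 7.07, 7.31 and 7.14 at 36 h of ONC201, a rise of 1.15 ± 0.23 (adjusted p = 0.00126). Against untreated levels of 7.20 and 7.48 on the third chip it fell with rapamycin to 6.26 and 5.98 (fell by 1.22 ± 0.17, adjusted p = 0.00264). It also fell with 24 h of tunicamycin to 6.58 and 6.47, by 0.82 ± 0.17 (adjusted p = 0.0082, and 0.0513 without untreated replicate 2). In parental Z138 cells it rose from 12.83 and 12.67 to 13.28 and 13.35, by 0.57 ± 0.10 (adjusted p = 0.00181). The untreated 24 h arrays of JeKo-1 were above all 3 arrays at 0 h, and whether time in culture or chip accounts for this cannot be told apart.

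The lysine methyltransferases that modify these factors did not move as a group. EEF1AKMT3 rose with ONC201 by 0.38 ± 0.08 at 24 h in JeKo-1 (adjusted p = 0.00317) and by 0.75 ± 0.10 in parental Z138 cells (6.48 and 6.54 untreated, 7.18 and 7.35 treated; adjusted p = 0.00062). EEF1AKMT1 fell by 0.53 ± 0.10 in parental Z138 cells. EEF2KMT was called higher with ONC201 by its brightest probe (0.34 ± 0.11 in JeKo-1 at 24 h, a call lost without 24 h replicate 1 or 3 or 0 h replicate 1 or 3, with an adjusted p of 0.0925 at most), but another of its 4 probes was called lower (fell by 0.55 ± 0.09).

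Members with the TOP start printed above that were called in a comparison with untreated or 0 h cells were all higher there. Of the 12, 7 rose and 0 fell at both 24 h and 36 h in JeKo-1 (median 0.23 each), and 8 rose and 0 fell in parental Z138 cells (median 0.37). Under median scaling 6 rose in parental cells, with a median of 0.22, and the calls of EIF3D and EIF4B were lost. Across the processing settings, 5 to 7 rose at 24 h and 5 to 8 at 36 h. At 24 h the call of EEF2 was lost in 5 of 6 omissions of an array, that of EIF4A2 in 4 and that of EIF3F in 1. At 36 h EIF3D lost its call in 4 of 6 and EEF2 in 1. In parental cells the call of EIF4B was also lost without the detection filter (limma, adjusted p = 0.0698). It was lost with the replicate number as a block as well (0.0504). With 1 array left out, the parental change ran from 0.26 to 0.37 for EIF4B, 0.26 to 0.31 for EIF3D and 0.39 to 0.62 for EIF3F. Of the 29 members with a promoter in the table but no TOP start, 3 rose and 7 fell at 24 h (median -0.11) and 6 rose and 5 fell in parental Z138 cells (median -0.01). Among all 585 genes with a TOP start that were measured in the JeKo-1 course, 153 rose and 67 fell at 24 h with a median of 0.07. Over all genes, 19.9% were higher and 18.5% lower at 24 h, 25.2% and 26% at 36 h, and 22.8% and 22% in parental cells.

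With tunicamycin for 24 h, 3 TOP-start members rose, EIF2D, EIF2A and EIF4A2, and with rapamycin 1 rose, EIF4A2; 0 fell with either drug. With tunicamycin the call of EIF2D was kept with any 1 array left out, that of EIF2A was lost with each omission (adjusted p of 0.106 at most), and that of EIF4A2 was lost without tunicamycin replicate 2 or either untreated replicate (0.0688 at most). The median of the 12 was 0.14 with tunicamycin, but 0.07 with the mean of probes and 0.02 under median scaling, and it was 0.07 with rapamycin. Ribosomal protein genes, the best known carriers of TOP starts, held few calls: of 66, 7 rose and 5 fell at 24 h of ONC201 in JeKo-1, 4 rose and 4 fell in parental Z138 cells and 3 rose and 3 fell with rapamycin. Over all genes, 38.4%, 44.8% and 24.6% were called in those comparisons, in the same order. At 24 h of tunicamycin 17.3% of all genes were higher and 15.4% lower, and with rapamycin 12% and 12.6%. The counts describe these lists and no test of the lists was made.

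**Figure D3:**
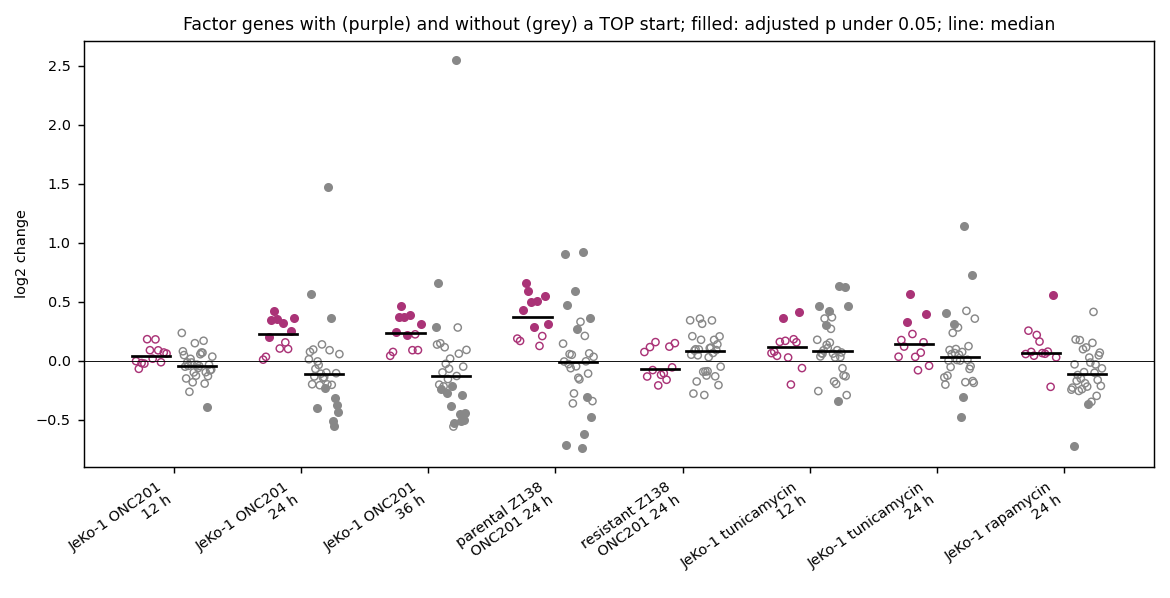
Log2 change (vertical axis) of factor genes with a TOP start (purple) and of those with a promoter in the table and no TOP start (grey) in 8 comparisons (horizontal axis); each circle is a gene, filled circles have an adjusted p under 0.05, and bars are medians. The purple medians are 0.23, 0.23 and 0.37 for ONC201 at 24 h and 36 h in JeKo-1 and in parental Z138 cells, and -0.07 in resistant cells.

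In Z138 cells resistant to ONC201 no change of a factor gene was called. The changes ran from -0.29 to 0.36, and 40 of the 54 genes had a larger absolute change in the parental than in the resistant cells. The same count was not made over all genes, of which 44.8% were called in parental and 0.669% in resistant cells. The difference of the 2 effects was called for 16 genes, of which 5 were higher and 11 lower in the resistant cells (background 30.6%, with 14.3% higher and 16.3% lower), a share close to that of all genes. It was called for 6 of the 12 TOP-start members, all lower (median -0.36). Under median scaling 3 were called lower, with a median of -0.23.

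EIF1 rose by 0.91 in parental cells and changed by 0.21 ± 0.09 in resistant cells (12.70 and 12.64 untreated, 12.82 and 12.94 treated), a difference of -0.70 ± 0.13 (adjusted p = 0.00614). EIF2A changed by -0.08 in resistant cells (difference -0.74 ± 0.13, adjusted p = 0.00396) and EIF2S3 by -0.21 (difference -0.71 ± 0.13, adjusted p = 0.00512). On the other side, EIF4E2 changed by 0.03 and EIF4EBP2 by 0.11 in resistant cells, with differences of 0.77 ± 0.13 and 0.73 ± 0.13. EIF4EBP1 changed by 0.14 in resistant cells, and its difference was not called.

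Of the 16 differences, 8 were kept with any 1 of the 8 arrays left out: EEF1A2, EIF1, EIF2A, EIF2S3, EIF3J, EIF4A2, EIF4E2 and EIF4EBP2. The count was 10 without resistant treated replicate 1, resistant control replicate 2 or parental treated replicate 2, and 9 without parental control replicate 1. Without drug, 0 of 54 factor genes were called between resistant and parental cells (background 3.98%, with 1.55% higher and 2.43% lower). Limma gave 8 of them an unadjusted p under 0.05, and the share of all genes under that threshold was not counted. The lowest adjusted p was 0.0645, for EIF4A2 (0.35 ± 0.09 higher in resistant cells).

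**Figure D4:**
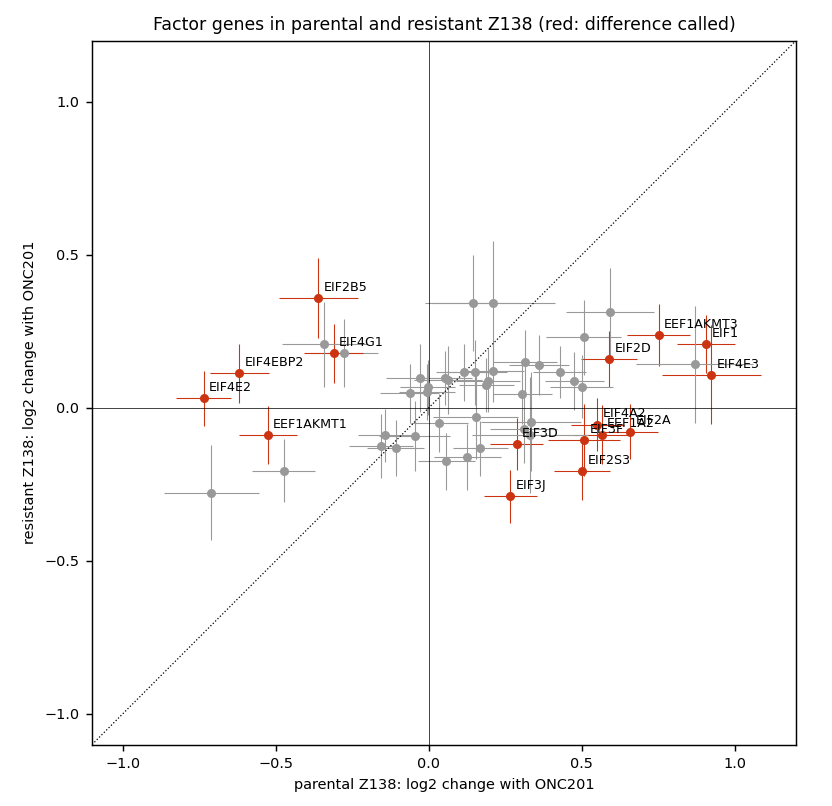
Log2 change with ONC201 in parental (horizontal axis) and resistant (vertical axis) Z138 cells for each factor gene; bars are standard errors, the dotted line marks equal changes, and red points are the 16 genes whose difference was called. Resistant changes lie between -0.29 and 0.36.

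The drugs were then set against each other. Between 24 h of tunicamycin and 24 h of rapamycin, within 1 chip, 13 factor genes were higher and 3 lower with tunicamycin (background 34.7%, with 18.2% higher and 16.5% lower). The largest differences were EIF4EBP1 and EIF4E3, each 1.49 higher (SE 0.13 and 0.11), EIF1, 1.12 ± 0.09 higher, EIF2S2, 0.87 ± 0.10 higher, and EIF5, 0.68 ± 0.11 higher. These 5 calls were kept with any 1 array left out, that of EIF5 was lost with the mean of its probes (0.17, adjusted p = 0.288), and the count was 8 without tunicamycin replicate 1 and 9 without rapamycin replicate 2.

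The 24 h effect of ONC201 in JeKo-1 minus that of rapamycin was called for 8 factor genes as higher and 3 as lower (background 32.3%, with 16.6% higher and 15.7% lower), among them EEF1A2 (1.77 ± 0.34), EIF4EBP1 (1.54 ± 0.17) and EIF1 (1.29 ± 0.15). EIF4E3 was also called higher, with no size given because no 0 h array detected it. The ONC201 effect minus the 24 h tunicamycin effect was called for 4 as higher and 5 as lower (background 26.6%, with 13.3% in each direction). EEF1A2 was 1.36 ± 0.34 higher, EIF5 lower (-0.83 ± 0.13, adjusted p = 0.000149) and EIF4G1 lower (-0.63 ± 0.12, adjusted p = 0.00103), and these 3 calls were kept with any 1 array left out. For EIF1, EIF4EBP1 and EIF4E3 this difference was not called. The count was 5 without tunicamycin replicate 1. The controls of these effects also differ, a 0 h group in one and a 24 h group in the other. Untreated 24 h cells, on another chip, differed from 0 h cells by 1.32 for EEF1A2, -0.551 for EIF5 and -0.332 for EIF4G1. For EIF4EBP1 and EIF1 these offsets were 0.267 and 0.128. A part of an offset that comes from time in culture enters the differences given here, while a part that comes from the chip cancels. The 2 parts cannot be told apart. For EEF1A2 the offset is close in size to the difference from tunicamycin.

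Between the lines, the 24 h effect of ONC201 in JeKo-1 minus that in parental Z138 cells was called for 3 factor genes as higher and 8 as lower (background 27.4%, with 13.8% higher and 13.6% lower). No dose is given for JeKo-1, so line and dose cannot be told apart. EIF4EBP2, EIF4E2 (0.54 ± 0.12) and EIF5 (-0.46 ± 0.12) kept their calls with any 1 array left out, and the count was 6 and 7 without parental treated replicate 1 and 2.

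Other genes of translation, from lists written for this purpose, were measured in the same fits. PDCD4, whose protein blocks the eIF4A helicase, rose by 0.73 ± 0.13 at 36 h of ONC201 in JeKo-1, by 1.27 ± 0.13 in parental Z138 cells and by 0.84 ± 0.09 at 24 h of tunicamycin. MKNK2, for a kinase that phosphorylates eIF4E, fell by 1.02 ± 0.08 with tunicamycin at 24 h and by 0.47 ± 0.08 with rapamycin. DOHH, which completes the hypusine of eIF5A, fell by 0.63 ± 0.13 at 24 h of ONC201 in JeKo-1 and by 0.72 ± 0.15 in parental Z138 cells. DPH5, an enzyme of the diphthamide of eEF2, rose by 0.50 ± 0.07 and 0.56 ± 0.10 in the same comparisons, while DPH2 of that pathway fell by 0.58 ± 0.20 and 0.85 ± 0.20. In the list of 5 termination, recycling and reinitiation genes, 0 rose and 1 fell at 24 h of ONC201 in JeKo-1, and 2 rose and 0 fell in parental Z138 cells. In the list of cap-complex partners and mTORC1 pathway genes, 1 of 10 rose and 1 fell at 24 h in JeKo-1, and 3 of 11 rose and 1 fell in parental Z138 cells. The shares of all genes called there were 38.4% and 44.8%.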

How the data were processed

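RNA was read on 28 Illumina HT-12 arrays with GenomeStudio, per the submitters' processing notes. Per the file headers, the deposited table holds a bead intensity for every probe without background correction, next to its detection p-value. An intensity table that the authors normalized served as an alternative; how is not given in the sources used here. The intensity values were processed with neqc of limma 3.58.1 in R 4.3.3, which models the background from the detection p-values, adds an offset of 16, takes log2 and quantile-normalizes the 28 arrays. Data were read with the data.table package (1.17.8) and pandas (2.3.3) under Python 3.11.15, and figures were drawn with matplotlib 3.10.9. The platform annotation names a single gene for 27004 probes, several for 4 and none for 20223.

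The brightest probe on average over all arrays stood for a gene, which was kept where the detection p was under 0.01 on at least 3 arrays (ONC201 course) or 2 arrays (other experiments). Each experiment was fitted on its own groups with lmFit and eBayes. Differences between JeKo-1 experiments were fitted over 20 arrays and differences between lines over 28. P-values were adjusted by Benjamini-Hochberg over all genes kept. In simulated data with 200 genes changed by 1 on the log2 scale, the fit recovered 96.5% in the ONC201 course at 12 h (8809 genes), 88.5% in parental Z138 (9420 genes) and 82% at 12 h of tunicamycin (9498 genes). False calls numbered 11, 11 and 4 in the same order. Smaller changes, like many of those given above, were not simulated, so recovery at such sizes is not known. The number of arrays limits the precision.

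Genes named were the called members with the largest change whose arrays do not overlap (up to 8 per comparison), up to 2 per complex, and a panel followed throughout. The members, the lists and this rule were chosen with earlier results of these data known. EEF1E1, EEF2K, EIF1AD and EIF4G3 were not analysed here. Promoter sequences are RefSeq's for GRCh38.p14, and 45 members matched.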

Additional observations from a re-analysis of the deposited data

Results flagged for a closer look

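The effect of ONC201 differed between resistant and parental Z138 cells for 16 factor genes, by limma's test of the difference itself. The resistant effect was lower than the parental effect for EIF4E3 (-0.816), EIF2A (-0.737), EIF2S3 (-0.709), EIF1 (-0.698), EEF1A2 (-0.653), EIF3F (-0.612), EIF4A2 (-0.606), EIF3J (-0.556), EEF1AKMT3 (-0.514), EIF2D (-0.43) and EIF3D (-0.405), as log2 values. EIF4E3 was detected on none of the 4 resistant arrays, so its value rests on signals at background. The resistant effect was higher for EIF4E2 (0.767), EIF4EBP2 (0.731), EIF2B5 (0.719), EIF4G1 (0.488) and EEF1AKMT1 (0.438). In each of these 5 the parental change was negative.

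The effect of 24 h of ONC201 differed between JeKo-1 and parental Z138 cells for 11 factor genes by the same kind of test. The JeKo-1 effect was higher for EIF4EBP2 (0.709), EIF4E2 (0.537) and EIF1AX (0.512). It was lower for EIF3C (-0.702), EIF5 (-0.465), EIF3A (-0.464), EIF4G2 (-0.447), EIF3J (-0.41), EIF4H (-0.381), EIF1B (-0.38) and EEF1AKMT3 (-0.368). With the mean of probes the difference of EIF1AX was 0.147 (limma, adjusted p = 0.453), and the call of EIF4G2 was lost too (0.0586). In the authors' normalized table the calls of EIF3J and EEF1AKMT3 were lost (0.076 and 0.0945). Median scaling ended those of EIF3J and EIF4H (0.0713 and 0.0618). The lines were on different chips, and the JeKo-1 effect is against 0 h whereas the Z138 effect is against untreated cells at 24 h.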

How the results depend on the processing

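The counts of factor genes called kept within 1.5 times of their value under median scaling, the authors' normalized table and the mean of all kept probes. Exceptions elsewhere were untreated resistant against parental Z138 cells, where 4 genes were called without background correction in place of 0, and, without the detection filter, 12 h of tunicamycin (7), tunicamycin against rapamycin (10) and the ONC201 minus tunicamycin effect (5). Leaving out 1 array, the counts ran from 0 to 1 (ONC201 12 h), 18 to 25 (24 h), 28 to 31 (36 h), 19 to 23 (parental Z138), 9 to 14 (resistant minus parental), 3 to 6 (tunicamycin 12 h), 7 to 8 (tunicamycin 24 h), 5 to 6 (rapamycin), 8 to 12 (tunicamycin against rapamycin), 5 to 13 (ONC201 minus tunicamycin), 9 to 15 (ONC201 minus rapamycin) and 6 to 15 (JeKo-1 minus parental Z138); the counts of 0 in resistant cells and in untreated cells did not change. Of 173 calls of single genes, 172 held without background correction, 151 with median scaling, 155 in the authors' table, 137 without the detection filter and 159 with the mean of probes. EEF2KMT turned sign with the mean of its probes, to -0.0717 at 24 h of ONC201 in JeKo-1 and -0.000126 in parental Z138 cells, where its probes disagree. Replicate numbers did not pair the samples (same-number correlations of -0.228 to 0.13). With the replicate number as a block the counts were 21 (ONC201 24 h), 27 (36 h), 27 (parental), 15 (resistant minus parental), 9 and 11 (tunicamycin 12 h and 24 h) and 6 (rapamycin), and 156 of the 173 gene calls held. The cause of these shifts was not tested. Dim genes, EIF4E among them, were limited by signal over background.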
